A study of Mus musculus with 9 samples.

Results

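Stat5a binding was compared between an early and an end stage of T helper 2 (Th2) differentiation in mouse CD4+ T cells, by chromatin immunoprecipitation and sequencing (ChIP-seq). The members are 4 of the 9 libraries of the series: Stat5a after 2 rounds of differentiation, Stat5a at 8 h, and the IgG control of each of these stages. Each is 1 library with no replicate, so every difference below is between 2 libraries, not between conditions, and no p-value is given. The strain, the age of the mice, the culture conditions and any pooling of animals are not stated in the labels, which name the source only as CD4+ T cells. No genotype or drug is named for any library, and the length of a round in hours is not given. Stat5a at 13 h and the 3 Stat5b libraries were read in the same regions as measurements that the comparison did not use. Cell type markers are read from RNA, which was not measured here, so the labelled cell type was not checked.

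The places compared were 43766 nuclear regions out of 43771 in all, made by joining the overlapping peaks of the 6 deposited peak lists, 1 for each Stat5a and Stat5b library. The other 5 regions lie on the mitochondrial genome and were left out. Regions had a median width of 488 bp and covered 24.02 Mb of the mm8 mouse build. Of them, 11926 carried a deposited Stat5a peak at 8 h or after 2 rounds, and the remainder came from the lists of the other libraries. A level is given as RPM, the number of read 5′ ends in a region per 1000000 mapped reads of the library. A ratio is the level after 2 rounds divided by the level at 8 h, followed in brackets by its exact (Clopper-Pearson) 95% interval, which covers counting error only. A region was called higher or lower where this interval lay wholly above 2 or wholly below 0.5. Because amplified copies of 1 fragment are not independent molecules, each combination of start and strand was also counted once, and a call that held on all reads and on these distinct starts is described as made on both counts.

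Stat5a and Stat5b are closely related transcription factors that wait in the cytoplasm until a cytokine receptor, such as the receptor for IL-2, is engaged. Janus kinases then phosphorylate them, and the paired proteins enter the nucleus and bind a short palindromic DNA motif known as a GAS element. IL-2 signalling through Stat5 is a long-known requirement of Th2 differentiation, in which CD4+ T cells acquire the ability to make IL-4 and related cytokines. The study's title places the induction of the IL-4 receptor alpha chain by IL-2 at the centre of the early stage, so binding at 8 h and at the end stage addresses how the occupied places differ. A ChIP-seq level mixes the share of cells in which a place is bound with how often it is bound in each of them, and these cannot be told apart here.

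The 8 h Stat5a library held 3130228 reads and the 2-round library 6645271, with 6241015 and 5787254 reads in the IgG libraries of these stages. Distinct starts made up 65.5% and 61.0% of the Stat5a reads, and 68.5% and 70.6% of the IgG reads. The regions held 7.40% of Stat5a reads at 8 h (95% Wilson interval 7.38 to 7.43) and 9.16% after 2 rounds (9.14 to 9.19), against 4.07% and 4.54% of IgG reads. The smallest level distinguishable from an absence of reads, 3 counts, was 0.958 RPM at 8 h and 0.451 RPM after 2 rounds. In a region with 0 reads at 8 h, 18 reads after 2 rounds (2.71 RPM) were needed for a call, and 9685 regions had that many. In a region with 0 reads after 2 rounds, 6 reads at 8 h (1.92 RPM) sufficed, and 12173 regions had that many, so falls could be called at lower levels than rises.

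At the end stage Stat5a was higher in a limited set of places and lower in a smaller one, and among the regions with the most reads both steady levels and rises were common. On all reads, 1633 regions (3.73%) were higher and 834 (1.91%) were lower after 2 rounds. On both counts, 431 regions (0.985%) were higher and 176 (0.402%) were lower. The same rule applied to the IgG libraries called 241 regions (0.551%) higher and 64 (0.146%) lower on all reads, and 17 (0.0388%) higher and 5 (0.0114%) lower on both counts. With 25 bp reads alone, the only length in the 8 h libraries, the IgG libraries gave 876 higher and 2 lower on all reads. The Stat5a libraries gave 2072 higher and 555 lower in that setting. Across the 28639 regions with reads at both stages the median ratio was 1.10, or 0.14 on the log2 scale, and with distinct starts it was 0.02 on that scale. Scaling each library so that this median became 1 gave 1324 regions higher and 1146 lower on all reads, a share of 53.6% higher among the calls in place of 66.2%. No region called higher became lower under that scaling, nor the reverse, which a shift of this size could not bring about.

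**Figure D1:**
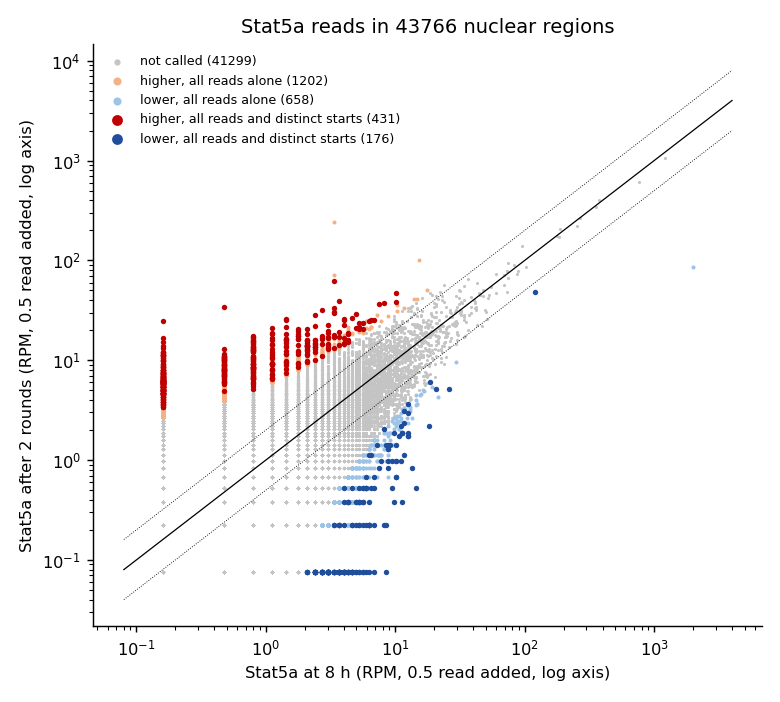
Stat5a level of each of the 43766 nuclear regions at 8 h (x axis) and after 2 rounds (y axis), in RPM with 0.5 read added, both axes logarithmic; each point is a region, the solid line marks equal levels and the dotted lines mark ratios of 2 and 0.5. The 431 regions higher on both counts (red) lie at low 8 h levels, the 176 lower ones (dark blue) at modest 8 h levels, and many regions with the highest levels lie near the solid line. Some of these also have high IgG, such as chr2:98466999-98468251 with 1221 RPM of Stat5a and 1076 RPM of IgG at 8 h.

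How much could be called depended on the reads in a region. Among the 23830 regions in which neither library had 10 reads, none was called higher and 293 were called lower on all reads. With a higher count of 10 to 29 reads, 675 of 15542 regions were higher and 471 lower. With 30 to 99 reads, 839 of 3929 regions were higher and 68 lower, or 330 and 28 on both counts. With 100 or more reads, 119 of 465 regions were higher and 2 lower, or 81 and 1 on both counts. In 596 regions with at least 30 reads the whole interval lay between 0.5 and 2, which bounds the difference to less than 2-fold in either direction. They included 176 (37.8%) of the regions with 100 or more reads, of which 81 (17.4%) were higher on both counts. IgG was not used to choose the 596 regions, so some with high IgG are among them. Their median levels at 8 h were 10.2 RPM for Stat5a and 1.44 RPM for IgG, and after 2 rounds 10.4 and 1.56 RPM.

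The deposited peak lists overlapped only in part. Stat5a had 5585 peaks at 8 h and 9791 after 2 rounds, with median widths of 301 and 347 bp after overlapping peaks were joined. Of the 5491 nuclear 8 h peaks, 45.9% (Wilson 44.6 to 47.3) overlapped a 2-round peak by at least 1 bp. Of the 9556 nuclear 2-round peaks, 25.8% (24.9 to 26.7) overlapped an 8 h peak. The lists differ in length and in the depth of their libraries, so the levels behind them follow.

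A region listed at only 1 of these stages usually still had reads at the other. The 2783 regions with a Stat5a peak at 8 h and none after 2 rounds had a median of 3.51 RPM at 8 h and 1.20 RPM after 2 rounds, against 0.518 RPM in IgG of the later stage. Of them, 629 were called lower on all reads and 168 on both counts. The 6733 regions with a peak only after 2 rounds went from a median of 0.958 RPM at 8 h to 3.16 RPM, and 1381 were called higher on all reads and 406 on both counts. These directions follow in part from how the lists were made, since a peak is present where its own library is high. The 2410 regions listed at both stages had medians of 6.39 and 6.62 RPM with a median ratio of 1.01, and 65 were higher and 27 lower on all reads. A Stat5b peak at some stage was present in 99.2% of these shared regions, in 82.4% of those listed only after 2 rounds and in 68.1% of those listed only at 8 h. In regions of neither Stat5a list, most of which entered through a Stat5b list, the share was 80.1%.

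Some of the strongest Stat5a places were shared by both stages. Regions are named here by mm8 position, since no mm8 gene annotation was used, so whether a region is a promoter, exon or intron is not given. Where a locus name is added, it is general knowledge of the mouse map, given as background and not checked against this build. Region chr9:107153387-107156833 lies in the stretch of chromosome 9 that holds Cish, a feedback inhibitor of cytokine signalling induced through Stat5. Its Stat5a level was 94.6 RPM at 8 h, 87.8 RPM at 13 h and 139 RPM after 2 rounds, against 6.09 and 3.63 RPM in IgG at 8 h and after 2 rounds. It was the leading region without a high IgG level at both stages, and its ratio of 1.47 (1.29 to 1.68) stayed below the call of 2. On distinct starts the ratio was 1.20 (1.001 to 1.44).

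Region chr16:23902784-23905036, on the stretch of chromosome 16 that holds the repressor gene Bcl6, had 72.5 RPM at 8 h and 79.2 RPM after 2 rounds, against 4.01 and 2.25 RPM in IgG. Its ratio was 1.09 (0.932 to 1.28). Region chr1:60990082-60991533, in the interval of the co-receptor genes Ctla4 and Icos, had 73.8 and 67.0 RPM, a ratio of 0.907 (0.772 to 1.07), against 2.56 and 2.94 RPM in IgG. Both intervals lie wholly within 0.5 to 2, so a 2-fold difference at these regions lies outside counting error. Region chr8:84398358-84399721 had 42.8 and 58.8 RPM, a ratio of 1.37 (1.13 to 1.69). Region chr10:67641736-67644480, also among the 10 strongest at 8 h, had 50.2 RPM at 8 h and 30.5 RPM after 2 rounds, a ratio of 0.609 (0.492 to 0.755). It was not called lower. In a list of the 10 strongest at 8 h made without regions of high IgG, added after the data were seen, the lowest ratio was 0.524 (0.412 to 0.668), at chr15:62653332-62655530, which went from 42.5 to 22.3 RPM and was not called either.

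Among the 10 regions with the most Stat5a above IgG after 2 rounds, most differed from 8 h by less than 2-fold in point estimate. Region chr6:124715655-124716745 had 36.4 RPM at 8 h and 65.6 RPM after 2 rounds, a ratio of 1.80 (1.46 to 2.23). Region chr16:10552338-10554126 had 23.6 and 56.3 RPM, a ratio of 2.38 (1.85 to 3.10), with an interval that reaches below 2. Region chr15:9506633-9508244, near the gene of the IL-7 receptor alpha chain Il7r, had 17.6 and 51.0 RPM. Its ratio of 2.90 (2.18 to 3.93) was called on all reads, and that of distinct starts, 2.52 (1.72 to 3.78), was not. The only region of these 10 called higher on both counts was chr10:92081178-92082125, described with the rises. The lists of the 10 strongest regions at each stage share 3 regions. Of the 10 at 8 h, 5 also had an IgG level of at least 25% of the Stat5a level, and when such regions are left out of the 8 h list, 4 regions are shared.

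**Figure D2:**
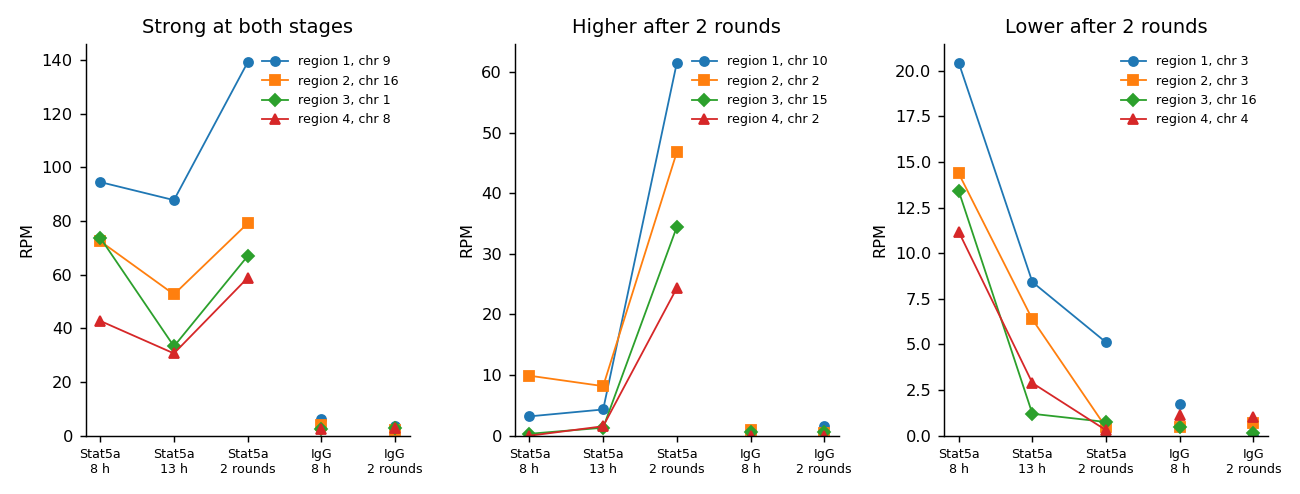
Level in RPM (y axis, linear, a separate scale in each panel) of 12 named regions in the Stat5a libraries of 8 h, 13 h and 2 rounds (joined points) and in IgG of 8 h and 2 rounds (single points), 1 library each. In the left panel, regions on chromosomes 9, 16, 1 and 8 have between 42.8 and 94.6 RPM at 8 h and between 58.8 and 139 RPM after 2 rounds. All are lower at 13 h than at 8 h, with between 30.7 and 87.8 RPM. In the middle panel, regions on chromosomes 10, 2 and 15 climb to between 24.4 and 61.5 RPM. In the right panel, regions on chromosomes 3, 16 and 4 fall from between 11.2 and 20.4 RPM to 5.12 RPM or less.

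The rises on both counts started from few reads, which the call itself favours. In the 431 higher regions the median Stat5a level was 0.319 RPM at 8 h, 1.44 RPM at 13 h and 8.73 RPM after 2 rounds. The IgG medians in the same regions were 0.481 RPM at 8 h and 0.691 RPM after 2 rounds, and the 8 h Stat5a median is that of a single read. Summed over the regions, within 400 bp of their midpoints, distinct Stat5a starts at 8 h came to 349 per 1000000 against 210 in IgG, so the 8 h library was above IgG there as a whole. Of the 431, 411 had at least 30 reads after 2 rounds, and 150 of these had no Stat5a read at 8 h. A deposited Stat5a peak at 8 h was present in 24 of the 431, against 5193 of all 43766 regions. One of 2 rounds was present in 430 of the 431, against 9143 of all regions. The median ratio of IgG in the 431 regions was 1.51, against 1.08 over all regions, and its part in the result was not tested.

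Region chr10:92081178-92082125 had the highest end-stage level of any region higher on both counts, with 10 reads at 8 h (3.19 RPM), 36 at 13 h (4.33 RPM) and 409 after 2 rounds (61.5 RPM), and IgG levels of 0.641 and 1.56 RPM. All reads gave a ratio of 19.3 (10.4 to 40.5), and distinct starts one of 14.5 (6.53 to 40.1). It was the fifth strongest Stat5a region after 2 rounds, and at 8 h it was an ordinary peak. Region chr15:58947950-58948767 went from 1 read at 8 h (0.319 RPM) to 229 after 2 rounds (34.5 RPM), against 0.641 and 0.691 RPM in IgG. With 1 read at 8 h its ratio of 108 has an interval whose lower end is 19.2. Region chr2:80546369-80547451 had 0 reads at 8 h, 13 at 13 h (1.56 RPM) and 162 after 2 rounds (24.4 RPM), and none in either IgG library. The exact interval of its ratio begins at 20.5 on all reads and at 11.004 on distinct starts. The corresponding lower ends on all reads were 13.9 for chr8:12949050-12949969, 12.5 for chr6:115445379-115446540 and 11.5 for chrX:137735092-137735869, which also had 0 reads at 8 h and had 111, 100 and 92 reads after 2 rounds. On distinct starts they were 6.61, 7.57 and 6.20.

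The 24 rises that were already peaks at 8 h include chr10:92081178-92082125, with its ratio of 19.3. The next 4 by end-stage level, chosen after their values were seen, had ratios between 3.89 and 4.92. Region chr2:43964386-43965434 had 31 reads at 8 h (9.90 RPM), 68 at 13 h (8.18 RPM) and 311 after 2 rounds (46.8 RPM), a ratio of 4.73 (3.26 to 7.08). Region chr5:151644452-151645903 went from 7.99 to 37.8 RPM, a ratio of 4.73 (3.13 to 7.45). Region chr5:118755437-118756771 went from 7.35 to 36.1 RPM, a ratio of 4.92 (3.20 to 7.90). Region chr1:157233915-157235940 went from 9.90 to 38.5 RPM, a ratio of 3.89 (2.67 to 5.84). All of them had less than 2 RPM in IgG at both stages.

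The falls on both counts ended with few reads, which the call itself favours. In the 176 lower regions the median Stat5a level was 4.47 RPM at 8 h, 1.20 RPM at 13 h and 0.0752 RPM after 2 rounds, which lies between the level of 0 reads and that of 1 read. The IgG medians were 0.320 and 0.346 RPM. Summed over these regions as above, distinct Stat5a starts after 2 rounds came to 167.1 per 1000000 against 182.9 in IgG. The call used the 2-round Stat5a reads of these regions, so a low sum there follows in part from the choice. The lower regions had a median width of 373.5 bp and the higher ones of 828 bp, against 488 bp over all regions. A single peak list held 74 of the 176 lower regions and 1 of the 431 higher regions, against 27724 of all 43766 regions. Only 29 of the 176 lower regions had at least 30 reads at 8 h, and all of those kept at least 1 read after 2 rounds. Most falls therefore rest on fewer reads than most rises.

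Region chr4:32783825-32784332 had 35 reads at 8 h (11.2 RPM), 24 at 13 h (2.89 RPM) and 2 after 2 rounds (0.301 RPM), with IgG at 1.12 and 1.04 RPM. Its ratio was 0.0269 (0.00314 to 0.105), and the end-stage level lay below that of IgG. Region chr3:131189031-131190543 had 45, 53 and 3 reads, or 14.4, 6.38 and 0.451 RPM, a ratio of 0.0314 (0.00624 to 0.0978). Region chr16:52048496-52049141 went from 42 to 5 reads, a ratio of 0.0561 (0.0173 to 0.142). Among regions found in all 6 peak lists, chosen after their values were seen, chr3:107175776-107176533 fell from 20.4 to 5.12 RPM, a ratio of 0.2502 (0.160 to 0.385), and chr2:156813123-156814009 fell from 12.5 to 2.86 RPM, a ratio of 0.229 (0.125 to 0.407). The lower regions with the most 8 h reads, also picked by their values, were chr11:108827630-108828358 and chr2:8882506-8883617. The former had 121 RPM at 8 h and 48.2 RPM after 2 rounds, a ratio of 0.399 (0.343 to 0.464), but IgG stood above Stat5a there at both stages, with 148 and 95.9 RPM. The latter fell from 25.9 to 5.12 RPM, a ratio of 0.198 (0.128 to 0.299), with 1.92 and 1.90 RPM in IgG. Regions chr3:107175776-107176533, chr2:156813123-156814009 and chr2:8882506-8883617 kept Stat5a at the end stage above the IgG levels there.

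The 13 h library lay between the other stages in most of the called regions. Its Stat5a level was strictly between them in 359 of the 431 higher regions (83.3%) and in 155 of the 176 lower regions (88.1%). Over all regions this was so in 36.0%, and regions with a large gap between 2 stages leave more room for a value in between. In the 596 regions whose interval lay between 0.5 and 2 the 13 h level was at or below both other stages in 483 (81.0%), against 32.2% of all regions. Their medians were 10.2 RPM at 8 h, 7.46 RPM at 13 h and 10.4 RPM after 2 rounds. The 596 were chosen by their 8 h and 2-round reads and not by those of 13 h. All regions held 6.98% of Stat5a reads at 13 h, against 7.40% at 8 h and 9.16% after 2 rounds, and the part of this in the result was not tested.

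The Stat5b libraries showed another pattern between the same stages. The regions held 6.51% of Stat5b reads at 8 h and 19.8% after 2 rounds, against 7.40% and 9.16% of Stat5a reads. How far the enrichment of each single library sets the values below was not tested. By the same rule, 18984 regions (43.4%) were higher and 94 (0.215%) were lower for Stat5b after 2 rounds on all reads, and 13342 (30.5%) and 3 (0.00685%) on both counts. Its median ratio over all regions was 4.48. These values follow in part from how the regions were made, since 31605 of the 43766 have a peak in the Stat5b list of 2 rounds and 3203 in that of 8 h. Stat5b was higher in 18756 (59.3%) of the 31605 regions with a Stat5b peak of 2 rounds, and in 228 (1.87%) of the 12161 without one. In the 431 regions higher for Stat5a, Stat5b was higher in 425 (98.6%), with a median ratio of 22.7 and a median level that went from 0.582 RPM to 13.97 RPM, and 430 of them have a Stat5b peak of 2 rounds. In the 176 regions lower for Stat5a, Stat5b was higher in 4 (2.27%) and lower in none, with a median ratio of 0.977, and 87 of the 176 had a ratio above 1. Only 42 of the 176 have a Stat5b peak of 2 rounds, and their median Stat5b levels of 1.02 and 0.914 RPM leave little room for a call. In the 596 regions within 0.5 to 2 for Stat5a, Stat5b was higher in 450 (75.5%), with a median ratio of 4.36. Both factors come from the same stages, and cross-recognition by the antibodies was not tested.

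**Figure D3:**
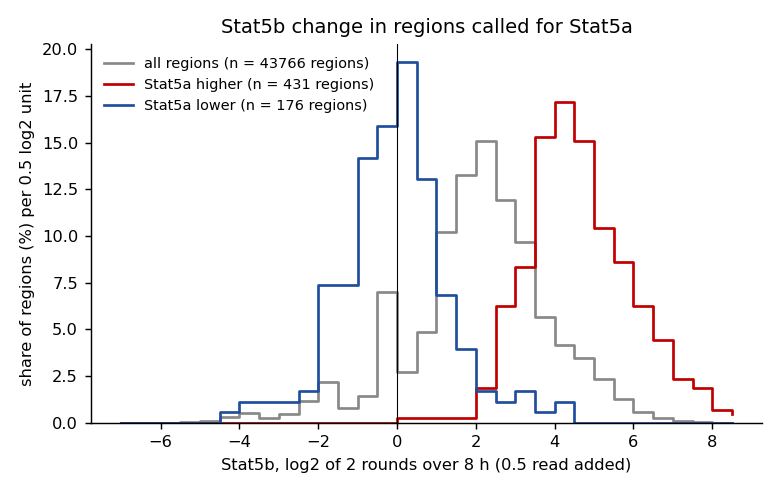
Share of regions (y axis, percent per step of 0.5 log2 units) by the log2 ratio of Stat5b after 2 rounds over 8 h (x axis, 0.5 read added to each count), for all 43766 regions (grey), the 431 regions higher for Stat5a (red) and the 176 lower for Stat5a (blue). The red curve lies to the right of the grey one, with a median ratio of 22.7 against 4.48, and the blue curve is centred close to equal levels, at a ratio of 0.977.

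Reads around a bound site pile up on the forward strand before it and on the reverse strand after it. This shape was not part of the rule that called regions higher or lower. Whether it entered through the deposited peak lists is not known. Of the 431 higher regions, 430 have a Stat5a peak of 2 rounds, and 170 of the 176 lower regions have one of 8 h. Within 400 bp of the region midpoints the median reverse start of the 431 higher regions lay 94 bp after the median forward start in the 2-round Stat5a library. In IgG of the same stage this offset was 42.5 bp. For the 176 lower regions the offset in the 8 h Stat5a library was 85 bp, against 42 bp in IgG at 8 h. The 1151 regions present in all 6 lists without a heap of reads at a single start had offsets of 82 bp at 8 h and 87 bp after 2 rounds. In the library where they are low the offsets were 75 bp for the rises (8 h, IgG 34 bp) and 73.5 bp for the falls (2 rounds, IgG 6.5 bp). These rest on 345 forward and 370 reverse Stat5a starts for the rises, and on 329 and 348 for the falls. No interval was computed, and the IgG offsets themselves ranged from 6.5 to 44 bp across these sets and stages. Whether the remaining Stat5a reads differ from IgG in shape was not tested. In 141 regions with at least 30 distinct starts at both stages and IgG under 25% of Stat5a, the centre of the reads moved by a median of 20.5 bp between the stages, and by 100 bp or less in 128 of them.

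**Figure D4:**
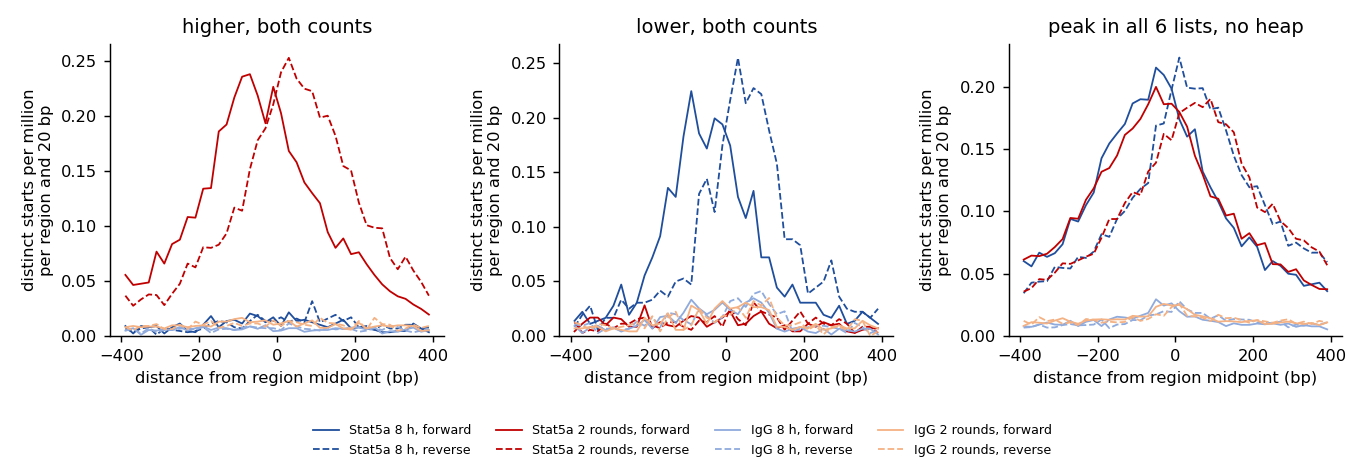
Distinct read starts per 1000000 distinct starts of the library, per region and 20 bp bin (y axis), by distance from the region midpoint in bp (x axis), for the regions higher on both counts, lower on both counts and present in all 6 lists; solid lines are forward and dashed lines reverse starts of Stat5a at 8 h (blue), Stat5a after 2 rounds (red) and IgG (pale). Forward starts peak before reverse starts in the 2-round library on the left and in the 8 h library in the middle, while the other Stat5a library lies low in each; both Stat5a libraries overlap on the right.

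Neighbouring regions were next read as groups, since Stat5 sites often lie in clusters. Regions in at least 2 lists, without a heap, and less than 10 kb apart formed 11296 groups, of which 984 held 3 or more regions. By the same interval rule on their summed reads, 73 of these 984 groups were higher after 2 rounds, 19 were lower, and 385 had an interval wholly within 0.5 to 2. IgG was not used to choose the 385. They include chr9:2999924-3038532, with 1190 RPM of Stat5a and 987.5 RPM of IgG at 8 h. Of the 15 groups with the most Stat5a at 8 h and IgG under 25% of it, 14 lay within 0.5 to 2. The exception, chr9:32655605-32691375, went from 76.4 to 44.7 RPM, a ratio of 0.585 (0.492 to 0.697). This list of 15 was made after the data were seen.

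The group at chr9:107152367-107172446, with the Cish region described above, held 7 regions and went from 186 to 271 RPM, a ratio of 1.46 (1.33 to 1.60). With each start counted once the ratio was 1.18 (1.05 to 1.34). None of its regions was called. The group at chr2:11533859-11581322, in the stretch that holds Il2ra, the gene of the high-affinity IL-2 receptor chain and a classical Stat5 target, held 14 regions and went from 189 to 201 RPM, a ratio of 1.06 (0.964 to 1.17). The steady sum covered unequal members. Region chr2:11558937-11561042 went from 14.7 to 33.1 RPM, a ratio of 2.25 (1.63 to 3.17) that was not called, whereas chr2:11571074-11571609 fell from 10.9 to 2.11 RPM, a ratio of 0.194 (0.0962 to 0.371), on both counts. These intervals do not overlap, but the 2 members are opposite examples taken from the 14, and the intervals are not adjusted for that choice. The groups at chr1:108412837-108448595, in the stretch of the survival gene Bcl2, and at chr1:60966625-61007352, in the Ctla4 and Icos interval, had ratios of 0.988 (0.877 to 1.11) and 1.03 (0.909 to 1.17).

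Falls also occurred beside steady regions. The group at chr6:129174277-129203892, in the stretch that holds the activation marker gene Cd69, held 9 regions and went from 114 to 83.5 RPM, a ratio of 0.734 (0.642 to 0.841). Region chr6:129190770-129191489 within it fell from 9.90 to 0.903 RPM, a ratio of 0.0912 (0.0311 to 0.222), and chr6:129175932-129176584 fell from 11.5 to 3.01 RPM, a ratio of 0.262 (0.144 to 0.464). Another member, chr6:129194693-129195213, was lower on all reads alone, with a ratio of 0.221 (0.111 to 0.420). A little further on, chr6:129198202-129199394 had 24.6 and 27.8 RPM, a ratio of 1.13 (0.863 to 1.496). Whole groups that were lower were weaker. The group of 4 regions at chr1:162141544-162147962 fell from 19.5 to 2.26 RPM, a ratio of 0.116 (0.0611 to 0.206), and that of 3 regions at chr9:115939668-115943625 fell from 12.1 to 1.35 RPM, a ratio of 0.112 (0.0474 to 0.235).

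In some stretches several neighbouring regions rose together. The examples with the most regions called higher were chosen after their values were seen. At chr2:43960988-43989252, 5 of 6 regions were higher and the sum went from 17.9 RPM at 8 h and 17.8 RPM at 13 h to 99.8 RPM, a ratio of 5.58 (4.24 to 7.46). At chr1:132704482-132732644, in the part of chromosome 1 that holds Il10 and its relatives, 4 of 6 regions were higher and the sum went from 13.7 to 79.0 RPM, a ratio of 5.75 (4.21 to 8.04). Its region chr1:132729732-132731205 went from 5 reads (1.60 RPM) to 135 (20.3 RPM), a ratio of 12.7 (5.32 to 39.8). IL-10 is an anti-inflammatory cytokine that Th2 cells make.

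The group at chr11:53432928-53465886 lies in the Th2 cytokine locus of chromosome 11, which holds Il4 and Il13. It held 8 regions and went from 18.8 RPM at 8 h and 17.9 RPM at 13 h to 73.0 RPM after 2 rounds, a ratio of 3.87 (2.95 to 5.16), with IgG at 5.13 and 10.9 RPM. On all reads 4 of its regions were higher and none was lower. Region chr11:53435641-53437138 went from 5.11 to 19.0 RPM, a ratio of 3.71 (2.20 to 6.69), and its ratio of distinct starts, 3.88 (1.93 to 8.85), was not called. Region chr11:53458414-53459226 had 0 reads at 8 h and 44 after 2 rounds (6.62 RPM), and was the 1 member called on both counts. The strongest early member, chr11:53460363-53461753, had 6.71 and 18.8 RPM, a ratio of 2.80 (1.76 to 4.69) that was not called. IgG in this group thus also had more reads per 1000000 after 2 rounds, and its part in the result was not tested.

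**Figure D5:**
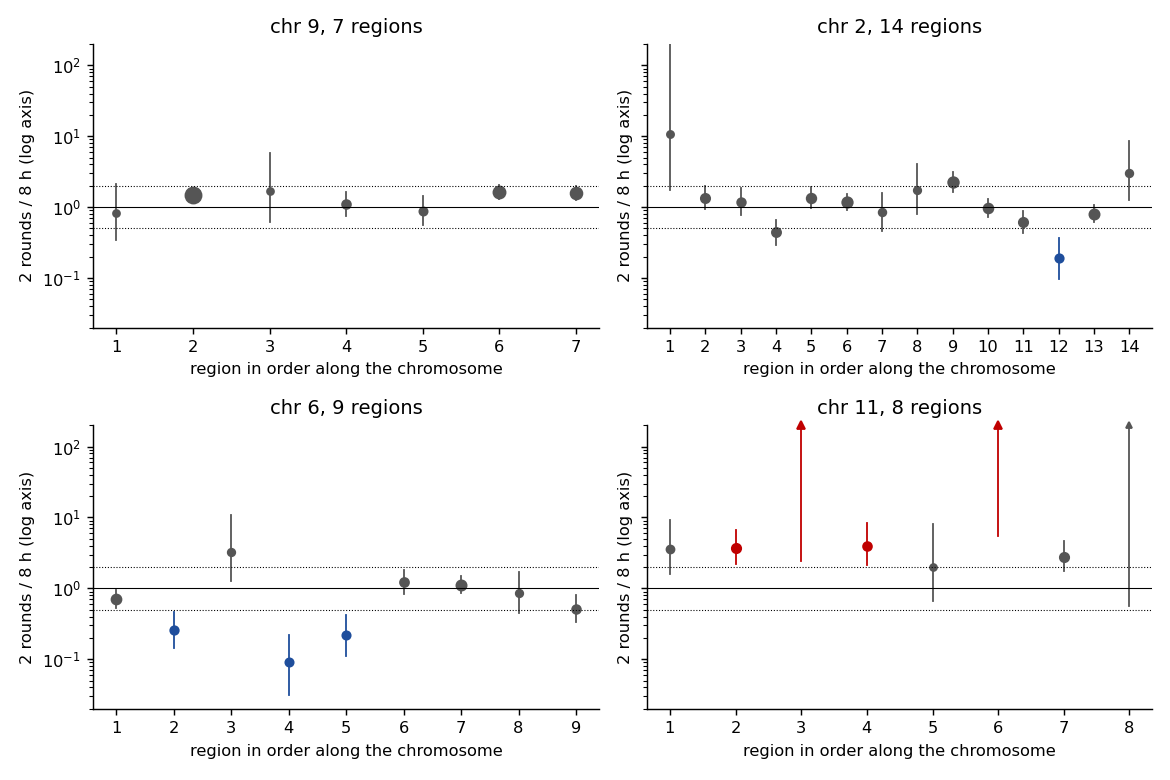
Ratio of Stat5a after 2 rounds over 8 h (y axis, logarithmic) with its 95% interval for each region, in order along the chromosome (x axis), of 4 groups; red marks regions called higher, blue regions called lower and grey regions not called on all reads, the point size grows with the level, triangles at the upper edge are regions with 0 reads at 8 h, intervals are cut at 200, and dotted lines mark 2 and 0.5. Regions of the strongest group on chromosome 9 lie between 0.837 and 1.70, those on chromosomes 2 and 6 include falls to 0.194 and 0.0912 beside steady ones, and the point estimates on chromosome 11 all lie at 2.00 or above.

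Neighbourhood differed between rises and falls as a description over regions, which share their libraries. Of the higher regions 430 have a Stat5a peak of 2 rounds themselves, and 170 of the lower ones have one of 8 h. Over all 43766 regions 9143 and 5193 have such peaks. The shares below may therefore follow from how the sets were chosen, which was not tested against listed regions alone. Another Stat5a peak of 8 h lay within 10 kb of 53 of the 431 higher regions (12.3%) and of 67 of the 176 lower regions (38.1%), against 17.8% of all regions. Another Stat5a peak of the 2-round stage lay within 10 kb of 164 of the higher regions (38.1%) and of 51 of the lower ones (29.0%), against 25.6% of all. Among groups, 83 held 2 or more higher regions and no lower one, 16 held 2 or more lower regions and no higher one, and 13 held both kinds.

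The 2-round Stat5a library mixes reads of 24 and 25 bp, and the 8 h library holds 25 bp reads alone. Reads of 24 bp made up 54.5% of the 2-round library. Distinct starts were 70.0% of its 24 bp reads and 50.5% of its 25 bp reads, and the labels do not say what sets the lengths apart. Taken against each other on all reads by the same rule, the lengths differed in 888 regions higher in 24 bp reads and 1243 higher in 25 bp reads. Between the Stat5a stages 1633 regions were higher and 834 lower on all reads, and between the IgG stages 241 and 64. On distinct starts the lengths gave 111 and 175, and the Stat5a stages 436 and 179. Of the 431 higher regions, 423 lay above the 8 h level in both lengths, and all 176 lower regions lay below it in both. These regions were called from the reads of both lengths together, so these numbers follow largely from the call. When each length was used alone with distinct starts, 124 of the higher and 9 of the lower regions were called in both. The region chr10:92081178-92082125 had 78.4 RPM among 24 bp reads and 41.3 RPM among 25 bp reads, both above its 3.19 RPM at 8 h.

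Reads heaped at a single start set the all-read values of a few regions. Region chr7:125339709-125340091 had 6287 Stat5a reads at 8 h (2008 RPM) and 569 after 2 rounds (85.6 RPM), with IgG at 42.5 and 15.03 RPM, and its ratio of 0.0426 (0.0391 to 0.0465) was called lower on all reads. A single start and strand held 6179 of the 8 h reads. The region had 14 distinct starts at 8 h and 11 after 2 rounds, a ratio of 0.398 (0.163 to 0.943) that was not called. The opposite case is chr4:142089736-142089896, which went from 10 Stat5a reads (3.19 RPM) to 1602 (241 RPM), a ratio of 75.5 (40.9 to 158), on 2 and 9 distinct starts. It was the all-read rise with the most reads after 2 rounds, and was not called on distinct starts. Its level was 440 RPM among the 24 bp reads of the 2-round library and 3.31 RPM among its 25 bp reads. IgG there went from 9.93 to 213 RPM, and Stat5b, which has no 24 bp reads, had 11.6 and 3.13 RPM. Regions chr8:85227637-85227674 and chr3:59003499-59003732 had the next most reads among rises on all reads alone, and their levels of 176 and 129 RPM in 24 bp reads stood against 10.6 and 0.992 RPM in 25 bp reads. In all, 56 regions had over 50% of at least 20 reads of some library at 1 start and strand. They include 7 of the 1633 higher and 2 of the 834 lower regions on all reads, and none and 1 of the regions called on both counts.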

How the data were processed

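Per the labels, Stat5a, Stat5b and IgG were immunoprecipitated from CD4+ T cells at 3 stages of Th2 differentiation (8 h, 13 h and 2 rounds). The authors deposited the mapped reads of each library and a peak list of each ChIP library, both as other values, start and end positions in bp of mm8, with no height or score. Which aligner and peak caller they used is not given in the sources used here. Peaks within and across the 6 lists were joined where they overlapped. Each read was counted at its 5′ end, and the 5′ end of a 24 bp read was moved 1 bp upstream, an offset that only 0.621% (forward) and 0.680% (reverse) of starts shared between the lengths in the 2-round Stat5a library, against 14.3% in Stat5a at 13 h. Ratios compare RPM with exact conditional intervals at 95%. Depth ranged from 3130228 to 6645271 reads in the 4 libraries compared.

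Named regions were the 10 with the most Stat5a above IgG at each stage without a heap, and per direction the 10 with the largest ratio among those called on both counts with at least 30 reads. Named groups were the 5 with the most Stat5a at each stage and per direction the 5 most extreme of 3 or more regions, and the text gives examples of each. The members and lists were chosen with earlier results of these data known. Alternatives were other scalings, thresholds, region sets, read lengths, a 75 bp shift, distinct starts and equal depth. The calling was tested on simulated data. A gene table of another build and its sequences were not used, so no sequence is printed. Counting ran in Python (version 3.11.15) with pandas 2.3.3 and numpy 2.4.6, intervals came from scipy 1.17.1, and plots from matplotlib 3.10.9.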

Additional observations from a re-analysis of the deposited data

Results flagged for a closer look

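Stat5a and Stat5b went opposite ways in a few regions. On all reads, 68 regions were lower for Stat5a and higher for Stat5b after 2 rounds, and 4 were higher for Stat5a and lower for Stat5b. The 4 include chr4:142089736-142089896 and chr8:85227637-85227674, where the reads of the 2-round Stat5a library heap at few starts (9 and 3 distinct starts). On both counts neither kind was found. The difference between the factors was not tested, since each library stands alone.

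Stat5a reads on the mitochondrial genome, which was left out of the regions, came to 675 RPM at 8 h and 619 RPM after 2 rounds. In IgG they came to 292 and 408 RPM.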

How the results depend on the processing

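No region called in the reported comparison was called the opposite way under any alternative run. The alternatives reuse, subset or rescale the same reads, so few of them could have reversed a call. Counting each start once gave 436 regions higher and 179 lower, and 17 and 5 between the IgG libraries. Intervals wholly on one side of 1 gave 6296 and 3195, and intervals beyond 3-fold gave 558 and 432. The lower regions numbered 352 among regions in at least 2 lists, 491 among regions with a peak of another library, 555 with 25 bp reads alone and 353 with the 2-round library thinned to the 8 h depth, so the count of falls depends on the regions listed only at 8 h and on depth. Alternatives added after the data were seen gave 836 higher and 432 lower with reads without a mismatch, 366 and 43 with distinct starts of 25 bp reads, and 632 and 116 with those of 24 bp reads. With 25 bp reads alone the IgG libraries gave 876 higher and 2 lower. The median log2 ratio was 0.50 over regions with reads in either library and 0.018 on distinct starts. Overlap of at least 50% of both peaks gave 35.5% of 8 h peaks and 20.4% of 2-round peaks, and the upper 50% of each list by reads gave 52.4% and 29.8%. Of 400 values for the 40 entries of the lists of named regions, some of which name the same region, 385 kept their call or lack of one, 14 lost the call, 1 gained it and 0 were called the opposite way. In regions not called, 19 of these values lay on the other side of a ratio of 1 than the reported one, and in 1 region with 0 reads at 8 h the ratio with 25 bp reads alone and the 8 h library set at 3 counts fell below 1. No paired analysis was possible because each group holds 1 library and the labels give no replicate numbers.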
